A study of Homo sapiens with 117 samples.

Results

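The CTCF peaks of the beta-globin locus were described in DIvA cells: all peaks of 24 CTCF ChIP-seq lists whose summit lay in GRCh38 chromosome 11, positions 5180000 to 5360000. This 180-kb window holds HBE1, HBG2, HBG1, HBD and HBB with the flanks on which their insulators lie. It held 142 of the 6621481 peaks of all lists. DIvA cells derive from the osteosarcoma line U2OS and express an AsiSI restriction enzyme whose estrogen receptor part keeps it from cutting DNA until 4-hydroxytamoxifen (4-OHT) is added. IDH1 WT and IDH1 R132H cells either stayed untreated (−DSB) or received 4-OHT at 300 nM over 4 h (+DSB). The same was done in cells with IDH1 R132H and overexpressed TET1, either its active catalytic domain (TET1 CD) or a mutated version of that domain (TET1 dCD). IDH1 WT had 3 lists without DSB (replicates 2 to 4) and 4 with DSB, and IDH1 R132H had 4 and 4. TET1 CD had 2 lists without and 2 with DSB, and TET1 dCD had 3 and 2. All 8 conditions share the AsiSI construct and the same cell line, and the TET1 conditions have no IDH1 WT counterpart. The labels name the line and not its clones. Globin expression was not measured in the files used here, and peaks of CTCF give no marker with which to check the labelled cell type.

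The beta-globin genes lie in the order of their use in development, with the embryonic HBE1 next to a distal enhancer, the locus control region, then the fetal HBG2 and HBG1, and the adult HBD and HBB. The cluster is embedded among olfactory receptor genes and is silent outside the red cell lineage. CTCF, a zinc finger protein that binds an asymmetric motif and stops loop-extruding cohesin, is known to occupy an insulator on each side of the cluster, at the hypersensitive sites called HS5 beyond the locus control region and 3′HS1 beyond HBB.

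Exactly 2 sites of the window had a peak in all 24 lists, 1 on each side of the globin genes, where summits within 100 bp of the strongest peak were joined into a site. The globin genes are transcribed toward lower coordinates. The site at the lower coordinate, centred at position 5204953, is therefore called the 3′ site, and the site at position 5291443 the 5′ site. Their positions lie where 3′HS1 and HS5 are known to be, although the annotations used here do not mark hypersensitive sites. The 3′ site was intergenic in RefSeq, 4.27 kb from OR51V1, an olfactory receptor gene, and 20.5 kb from the 3′ end of HBB. In GENCODE release 44 it lay 88 bp before the start of a lncRNA, ENSG00000224091. The 5′ site was 21.5 kb from HBE1 and 24 bp from OR51AB1P, an olfactory receptor pseudogene, in RefSeq. GENCODE also extends long transcript records of HBE1 and HBG2 over the 5′ site, which lay in their introns, and OR51B4 was the nearest protein-coding gene beyond it at 9.57 kb. The 151 bases around the median summit of each site are shown because they hold the sequence that CTCF recognises. They are given on the plus strand of GRCh38, at chr11:5204882-5205032 and chr11:5291374-5291524, with the best match to the CTCF motif in capitals.
3′ site: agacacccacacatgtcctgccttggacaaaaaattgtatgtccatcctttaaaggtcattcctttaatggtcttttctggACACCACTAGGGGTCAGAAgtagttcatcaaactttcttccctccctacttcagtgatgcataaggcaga
5′ site: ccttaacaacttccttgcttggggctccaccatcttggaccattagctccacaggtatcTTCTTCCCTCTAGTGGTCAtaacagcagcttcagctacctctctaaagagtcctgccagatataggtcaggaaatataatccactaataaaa

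The motif was learned from the 5000 strongest sites of other chromosomes as a 19-base weight matrix grown from the known core of the CTCF motif, and searched on both strands. At a score of 10 bits, a match was found at 79.2% of the 28783 sites of the genome with a peak in all 24 lists, and in 1.61% of windows of the same length 2000 bp away. The 28783 sites include the 5000 from which the motif was learned, while the 2 sites of the window were not among those 5000. The 3′ site had a match of 13.3 bits on the plus strand, at chr11:5204963-5204981. The 5′ site had a match of 17.0 bits on the minus strand, at chr11:5291433-5291451. A higher score was found at 62.5% of the 28783 sites for the 3′ site and at 32.7% for the 5′ site, so that only the 5′ site scored above the median of 15 bits. The motifs of the 2 sites face each other across the globin genes. Among 19036 neighbouring pairs of such sites that both had a match, 24.6% faced each other, 25.4% faced away and 50.1% pointed the same way. Read on its own strand, each motif shares 14 of 19 positions with the other, among them the run ACCACTAG. Neither window of 151 bases holds a CpG, the dinucleotide at which DNA is methylated, where the median site held 2.00 and 84.5% of sites held at least 1. No AsiSI recognition site, GCGATCGC, lay in the window, and the nearest was 1089 kb from the 3′ site and 1175 kb from the 5′ site.

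Several lists depart from what their labels say, and this bears on every comparison below. Inside 9 of the 24 lists, the peaks carry run names of another condition. The lists labelled IDH1 WT −DSB name IDH1 R132H −DSB runs, the lists labelled IDH1 R132H −DSB name IDH1 WT −DSB runs, and TET1 dCD −DSB replicates 1 and 2 name TET1 CD +DSB runs. Conditions are given here by label, and differences are also given by run name. Lists of a condition whose summit reads agreed within sampling noise were counted as 1 sample, which left 15 samples. Some merged lists agreed more closely than separate counts would, such as the 2 TET1 CD +DSB lists (chi-square over its degrees of freedom 0.637). Whether such lists share reads was not tested, and counts of lists are not counts of independent samples. The counts of samples were 2 for IDH1 WT −DSB, 2 for IDH1 WT +DSB, 2 for IDH1 R132H −DSB, 3 for IDH1 R132H +DSB, 1 for TET1 CD −DSB, 1 for TET1 CD +DSB, 2 for TET1 dCD −DSB and 2 for TET1 dCD +DSB. The study describes its CTCF ChIP-seq replicates as biological, but the labels do not say which lists came from separate cultures, so p-values measure the spread between these samples, which may in part be technical. The lists held 111558 to 503609 peaks each over a background of 1.04 to 5.73 reads. A peak's fold value is the reads at its summit plus 1 over the background plus 1. Its rank is its place by fold in its own list, with 1 the strongest. Reads and background were recovered from the steps of the fold values. In IDH1 WT +DSB replicate 3 the folds do not come in whole steps of 1 read, so its reads, their intervals and its background are approximate and not counts.

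**Figure D1:**
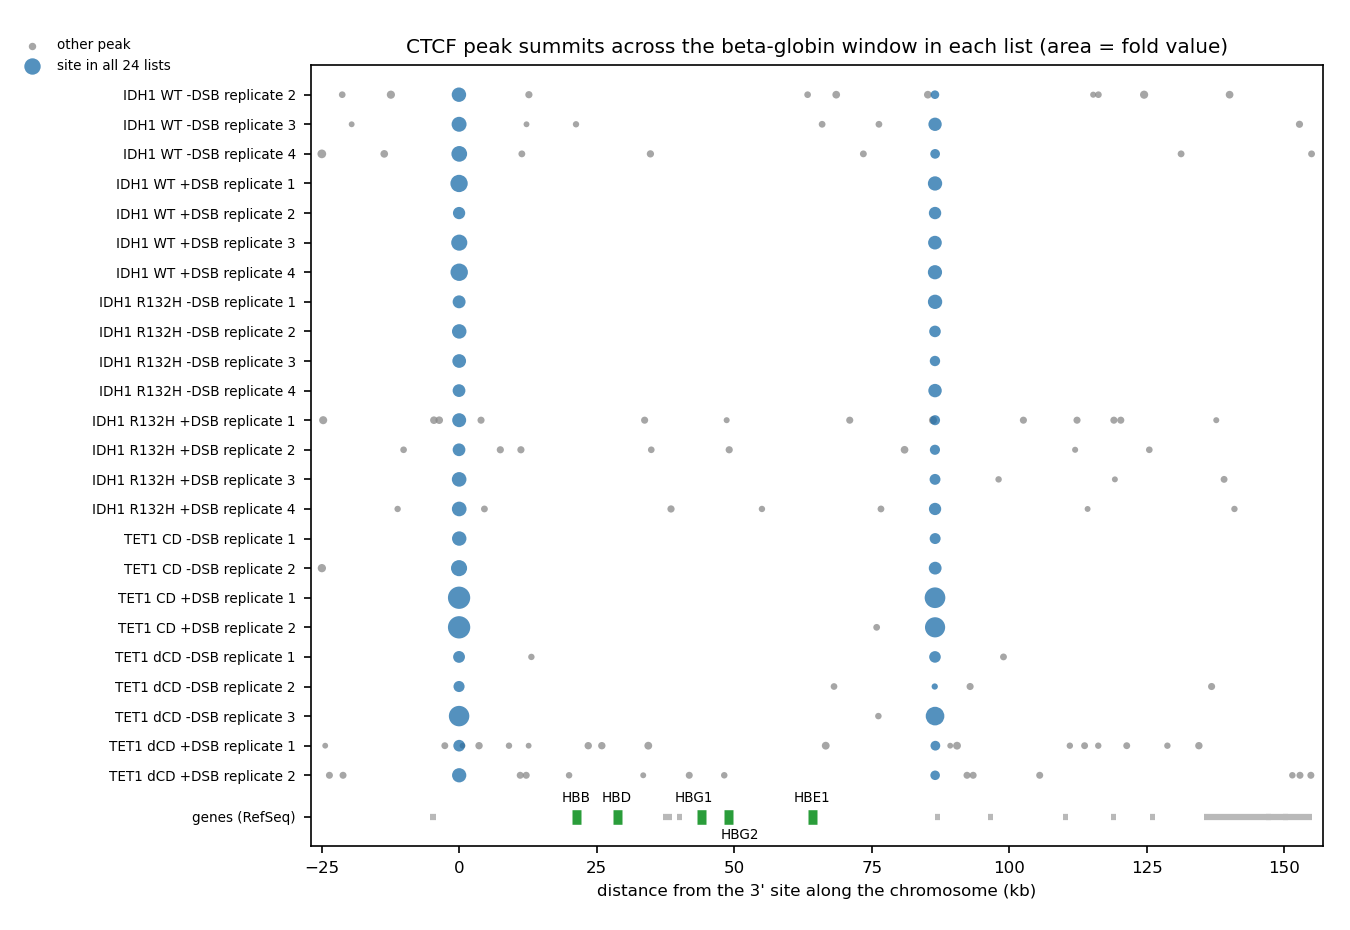
Peak summits of the 24 lists (rows) against the distance from the 3′ site (kb), with the area of each point scaled by the fold value and RefSeq genes below, the 5 globin genes in green. The 2 columns of large points are the sites in all 24 lists, 86.5 kb apart, and the 94 other peaks are small and scattered.

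Between and around the 2 sites, no other position in the window had a peak in more than 2 lists. The 142 peaks formed 90 sites, of which 2 were in all lists, 0 in 3 to 23 lists, 6 in 2 lists and 82 in a single list. The 94 peaks outside the 2 sites had folds of 2.24 to 5.03 and rested on 4 to 12 summit reads. Their best rank was 55164 and their median rank 192035, and 62 of them had a q-value under 0.05, while 0 reached a −log10 q of 10. Of these 94 peaks, 43 lay between the 2 sites, 15 beyond the 3′ site and 36 beyond the 5′ site. They came from 14 lists, and the other 10 lists had no peak in the window besides the 2 sites.

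The globin genes themselves carried no recurrent CTCF site. Within 2 kb of the 5 genes there were 11 peaks, from 6 lists, each with 4 to 8 summit reads and none ranked better than 88458. HBB, which encodes the adult beta chain (GRCh38 chromosome 11, 5225464 to 5227071), had 3 such peaks in 3 lists, 1 of them inside the gene. HBD, which encodes the minor adult delta chain (5232838 to 5234483), had 1 peak in 1 list. HBG1 (5248269 to 5249857), which with HBG2 encodes the fetal gamma chains, had 1 peak in 1 list. HBG2 (5253188 to 5254781) had 3 peaks in 3 lists, and 2 of them lay inside the gene. HBE1, which encodes the embryonic epsilon chain (5268345 to 5269945), had 3 peaks in 3 lists and none inside the gene. HBG1 and HBG2 are near-identical copies, so reads from either cannot always be told apart.

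The 6 sites found in 2 lists tie as the most frequent after the 2 insulator sites. The strongest was at position 5180009, in IDH1 WT −DSB replicate 4 and TET1 CD −DSB replicate 2, with 12 reads in each. It straddled the lower end of the window: a summit at 5180009 lay just inside and a summit at 5179999, of IDH1 WT −DSB replicate 3 with a fold of 3.77, just outside. Joined across that end, the site had peaks in 5 lists, with 7 to 16 summit reads. At the upper end, the last summit inside was at 5359874 and the first outside at 5360127, both in IDH1 WT −DSB replicate 4 with a fold of 3.09. Positions 5217153 and 5217641, between the 3′ site and HBB, and 5281154, between HBE1 and the 5′ site, were the repeated positions inside the insulators. Positions 5321137, near OR51B2, and 5357678, in OR51B5, were those beyond the 5′ site. At these last 5 positions no peak ranked better than 108869.

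At the 3′ site, all 24 peaks had a −log10 q of at least 14.0, with a median of 39.5 summit reads. In IDH1 WT −DSB the ranks were 22703, 22970 and 21527, from 27, 38 and 41 summit reads. In IDH1 WT +DSB they were 24975, 30144, 27250 and 25391, from 125, 49, 114 and 113 reads. Every IDH1 WT +DSB list ranked the site below every IDH1 WT −DSB list, although more reads lay under its summit. In IDH1 R132H −DSB the ranks were 31548, 23148, 27247 and 29594, from 47, 49, 41 and 35 reads. In IDH1 R132H +DSB they were 22680, 25630, 22270 and 22552, from 26, 21, 35 and 36 reads. By list, the ranks of the 2 IDH1 R132H conditions overlapped, and after lists were merged into samples they did not, since the best −DSB sample ranked at 26526 and the weakest +DSB sample at 25630. The TET1 CD −DSB lists ranked the site at 24853 and 22526, and the TET1 CD +DSB lists at 18442 and 18819, with 113 and 130 reads. The TET1 dCD −DSB lists gave 25738, 28901 and 19668, and the TET1 dCD +DSB lists 28558 and 20932. Only TET1 CD +DSB and TET1 dCD −DSB replicate 3 placed the 3′ site among their 20000 strongest peaks. These were also the lists with the fewest peaks (111558, 115419 and 141691), and 16.5%, 16.3% and 13.9% of their peaks ranked above the site. The lowest such share was 4.67%, in TET1 dCD +DSB replicate 2, so the order of lists depends on the measure.

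At the 5′ site, 23 of 24 peaks had a q-value under 0.05 and 17 a −log10 q of at least 10, with a median of 27.5 summit reads. In IDH1 WT −DSB the ranks were 65705, 26058 and 43013, from 9, 30 and 15 reads. In IDH1 WT +DSB they were 30459, 29771, 32336 and 31567, from 85, 50, 82 and 75 reads. The +DSB ranks thus lay close together and inside the wide range of the −DSB ranks. In IDH1 R132H −DSB the ranks were 28422, 30605, 38179 and 27957, from 58, 31, 23 and 39 reads. In IDH1 R132H +DSB they were 37841, 37652, 31412 and 27578, from 13, 13, 19 and 25 reads. These groups overlapped. The TET1 CD lists ranked the site at 33351 and 28971 without and at 20468 and 21516 with 4-OHT. The TET1 dCD −DSB lists gave 26533, 262718 and 21892, and the TET1 dCD +DSB lists 40642 and 43205. The rank of 262718, in TET1 dCD −DSB replicate 2, rested on 6 summit reads (95% exact Poisson interval 2.20 to 13.1) and was the only peak at either site with a q-value above 0.05. Intervals of reads cover counting error only.

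**Figure D2:**
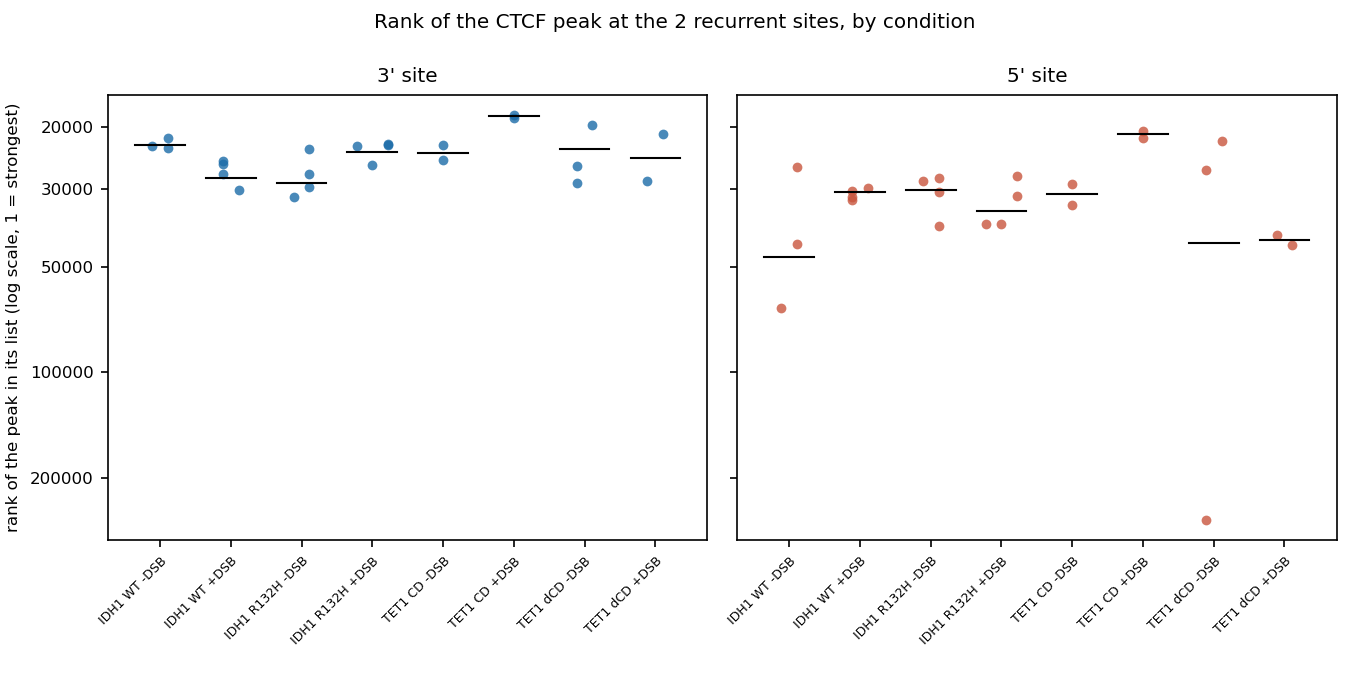
Rank of the peak at the 3′ site (left) and the 5′ site (right) in each list (points, with lists counted as 1 sample in the same column) by condition, on a log axis with the strongest at the top, and the geometric mean over samples (bars). Ranks at the 3′ site lay between 18442 and 31548, and those at the 5′ site between 20468 and 262718.

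The 3′ site was the stronger of the pair in most lists. It had the better rank in 21 of 24 lists and, by the mean over merged lists, in 13 of 15 samples. The 5′ site had the better rank in IDH1 WT +DSB replicate 2 and in IDH1 R132H −DSB replicates 1 and 4. The ratio of summit reads, 3′ over 5′, had a median of 1.49 and ranged from 0.810 to 3.5. In 22 of 24 lists the 95% exact Poisson intervals of the 2 sites' reads overlapped, and in IDH1 WT −DSB replicates 2 and 4 they did not. Overlap of such intervals is not a test of equal reads and does not show that the sites were equally strong. Among the lists with overlap were IDH1 WT +DSB replicate 1, with 125 and 85 reads, and IDH1 R132H −DSB replicate 1, with 47 and 58. Ranks at the 3′ site were also the more even, with an SD over lists of 0.213 on the log2 scale against 0.723 at the 5′ site. The latter includes the rank of 262718 in TET1 dCD −DSB replicate 2, from 6 reads, while every other list ranked the 5′ site at 65705 or better. A larger SD was found at 89.2% of the 28783 sites for the 3′ site and at 10.8% for the 5′ site.

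Both sites were weak among the sites that recurred in every list. Their median ranks were 24000 and 31008, against a median of 15157 over the 28783 sites. A better median rank was found at 76.7% of these sites for the 3′ site and at 91.9% for the 5′ site. The nearest such sites outside the window were stronger, with median ranks of 6387 at a distance of 80.7 kb beyond the 3′ site and 8687 at 89.5 kb beyond the 5′ site. The 86.5 kb between the pair exceeded the median gap of 50.9 kb between neighbouring sites, and 34.7% of the 28760 gaps were longer. Over all lists, the window's 142 peaks compare with a median of 247 in 180-kb stretches of the genome, of which 28.0% held fewer, and 45.8% of the stretches held 2 or more sites in every list.

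Whether IDH1 R132H changed CTCF at these insulators was tested by limma on −log2 rank over all 28783 sites, where a positive difference means a stronger peak in the first group and 1 means a rank better by a factor of 2. Neither site passed an adjusted p of 0.05 in any contrast, and 0 of the 2 had an unadjusted p under 0.05. Without DSB, 16.4% of the 28783 sites differed between IDH1 R132H and IDH1 WT. There the 3′ site differed by −0.36 (95% interval −0.82 to 0.09, adjusted p = 0.241) and the 5′ site by 0.64 (−0.42 to 1.69, adjusted p = 0.374). With DSB, 34.8% of sites differed, the 3′ site by 0.25 (−0.17 to 0.66, adjusted p = 0.334) and the 5′ site by −0.18 (−1.15 to 0.78, adjusted p = 0.773), neither past the threshold. By run names, the −DSB differences turned over, to 0.36 (adjusted p = 0.264) at the 3′ site and −0.64 (adjusted p = 0.392) at the 5′ site. The shares of the 28783 sites that differed between the genotypes were then 15.4% without DSB and 32.9% with DSB. Without IDH1 WT −DSB replicate 2, the −DSB difference at the 5′ site was 0.15 (adjusted p = 0.907), and without the sample of replicates 3 and 4 it was 1.12 (adjusted p = 0.204). At the 5′ site these intervals reach past a factor of 2 in rank, so the bounds there are wide. The groups share 1 estimate of the spread, and part of that width came from TET1 dCD −DSB replicate 2. Without that list, left out as an unplanned alternative, the intervals at the 5′ site were −0.04 to 1.31 without DSB and −0.80 to 0.43 with DSB.

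The response to 4-OHT was tested in the same fit. In IDH1 WT, 31.8% of the 28783 sites differed between +DSB and −DSB, while the 3′ site differed by −0.31 (95% interval −0.77 to 0.14, adjusted p = 0.269) and the 5′ site by 0.62 (−0.44 to 1.67, adjusted p = 0.349). The value at the 5′ site was 0.13 without IDH1 WT −DSB replicate 2 and 1.10 without replicates 3 and 4. In IDH1 R132H, 17.5% of sites differed, and the 3′ site differed by 0.30 (−0.12 to 0.71, adjusted p = 0.286) and the 5′ site by −0.20 (−1.17 to 0.76, adjusted p = 0.765). At the 3′ site the signs were opposite in the 2 genotypes, and in neither genotype did the +DSB samples overlap the −DSB samples. The difference between the genotypes in the response was 0.61 at the 3′ site (−0.01 to 1.23, adjusted p = 0.0926) and −0.82 at the 5′ site (−2.25 to 0.61, adjusted p = 0.320), in a contrast that 48.5% of the 28783 sites passed and that was added after the values were seen. With ranks taken among the 28783 sites alone, the value at the 3′ site was 0.46 and passed (adjusted p = 0.0336), as did 53.0% of all sites. With every list as its own sample it was 0.52 (adjusted p = 0.0215), and 64.1% of all sites passed. On the scale of the centred log2 fold, neither site passed, with 0.41 at the 3′ site (adjusted p = 0.382) and −1.20 at the 5′ site (adjusted p = 0.050), while 67.3% of all sites did. By run names the value at the 3′ site was −0.12 (adjusted p = 1.00), and 0 of the 28783 sites passed, with 729 at an unadjusted p under 0.05. The shares of sites that responded to 4-OHT also held by label only. By run names, 0 of the 28783 sites passed in IDH1 WT and 0 in IDH1 R132H, with 1184 and 654 at an unadjusted p under 0.05. Depth moved with these groups, since the background was 1.04 to 1.65 reads in IDH1 WT −DSB, 4.05 to 5.73 in IDH1 WT +DSB, 2.36 to 3.37 in IDH1 R132H −DSB and 1.06 to 1.62 in IDH1 R132H +DSB, and its part in the differences was not tested.

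**Figure D3:**
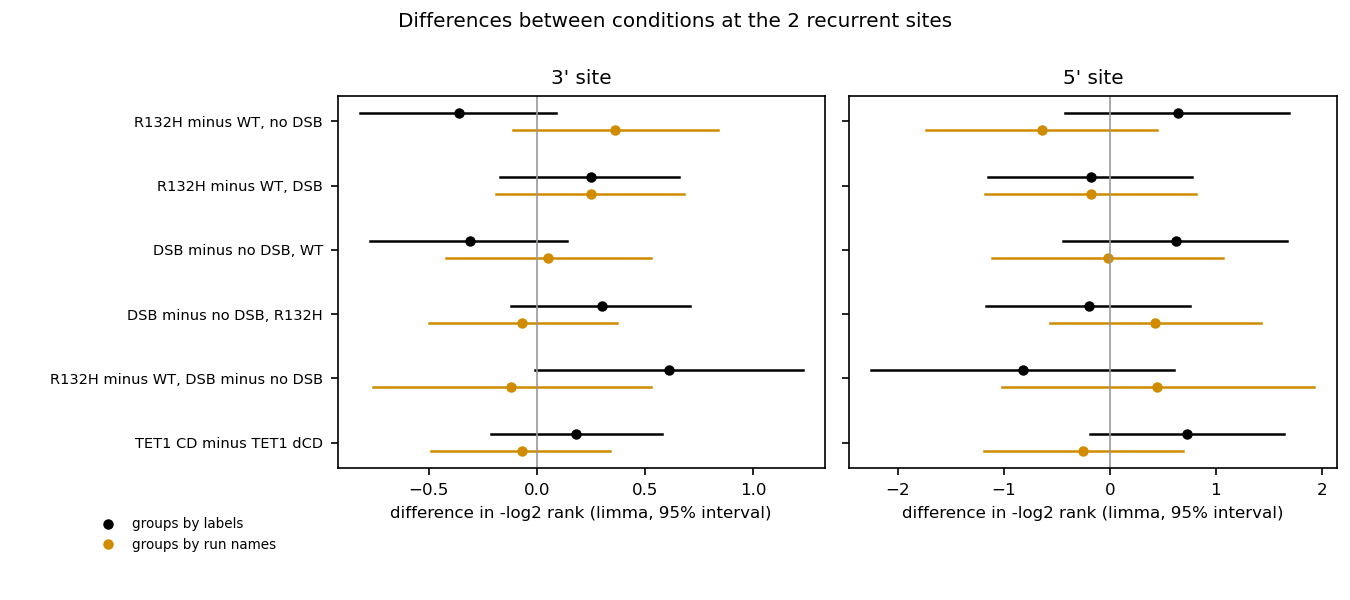
Differences in −log2 rank at the 3′ site (left) and the 5′ site (right) for 6 contrasts, as the limma estimate (points) with its 95% interval (lines), with conditions by label (black) or by run name (orange). Each black interval includes 0, and at the 3′ site the black points for the response to DSB lie on opposite sides of 0 in IDH1 WT and IDH1 R132H.

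TET1 CD, which oxidises 5-methylcytosine, was compared with TET1 dCD over both treatments. The 3′ site differed by 0.18 (95% interval −0.21 to 0.58, adjusted p = 0.650) and the 5′ site by 0.73 (−0.19 to 1.64, adjusted p = 0.426). In this limma contrast 0 of the 28783 sites passed, or 0%, with 4205 at an unadjusted p under 0.05, and 2 passed without the mean-variance trend. Each TET1 CD condition is a single sample here, and its spread is taken from the other groups. Without TET1 dCD −DSB replicate 3, whose 98 and 81 summit reads at the 3′ and 5′ sites were far above the 6 to 23 of the other TET1 dCD −DSB lists, the difference at the 5′ site was 1.21 and passed (adjusted p = 0.0493), as did 5.13% of the 28783 sites. Without only the list with 6 reads, TET1 dCD −DSB replicate 2, it was 0.32 (adjusted p = 0.592). Replicate 3 was also the only TET1 dCD −DSB list whose run name matched its label. Leaving it out kept only lists with TET1 CD +DSB run names in that condition. By run names, TET1 CD minus TET1 dCD had the opposite sign, with −0.07 at the 3′ site and −0.25 at the 5′ site.

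Both sites had a peak in all 24 lists, so presence could not differ between the genotypes there and was no test of them. Each was found in 4 of 4 samples with IDH1 WT and 5 of 5 with IDH1 R132H. Over the 328886 sites found in at least 4 lists, Fisher's exact test called 0 (0%) after adjustment, with 6913 at an unadjusted p under 0.05, and the smallest p that 4 against 5 samples allow is 0.00794. With conditions by run names it also called 0, with 30543 at an unadjusted p under 0.05. The site at the lower end of the window was found in 3 of 4 samples with IDH1 WT and 0 of 5 with IDH1 R132H (two-sided Fisher's exact p = 0.0476, not past the threshold after adjustment), and in 1 of 4 and 2 of 5 by run names.

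The number of peaks in the window varied with the condition by label. The lists of IDH1 WT −DSB had 12, 8 and 9 peaks, and those of IDH1 WT +DSB 2 each. The lists of IDH1 R132H −DSB had 2 each, and those of IDH1 R132H +DSB 15, 10, 5 and 9. The pattern with 4-OHT was thus opposite in the 2 genotypes, and wherever a list had 2 peaks they were the 3′ and 5′ sites. TET1 CD lists had 2 or 3 peaks, TET1 dCD −DSB lists 4, 5 and 3, and TET1 dCD +DSB lists 20 and 16. Over samples, +DSB minus −DSB was −8.25 peaks in IDH1 WT (two-sided exact permutation p = 0.333, the smallest possible) and 8.67 in IDH1 R132H (exact permutation p = 0.20, where 0.10 is the smallest possible). The difference between these responses, added after the values were seen, was 16.9 peaks (exact permutation p = 0.0333). For this p, genotype labels were permuted within each treatment. A genotype difference in a single treatment could therefore also lower it, and it is not specific to a difference in response. IDH1 R132H minus IDH1 WT within treatments was 0.208 peaks (exact permutation p = 0.933), and TET1 CD minus TET1 dCD was −8.38 (exact permutation p = 0.111, the smallest possible). By run names, IDH1 R132H exceeded IDH1 WT by 8.46 peaks (exact permutation p = 0.0333), and the responses differed by 0.417 (exact permutation p = 0.933).

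**Figure D4:**
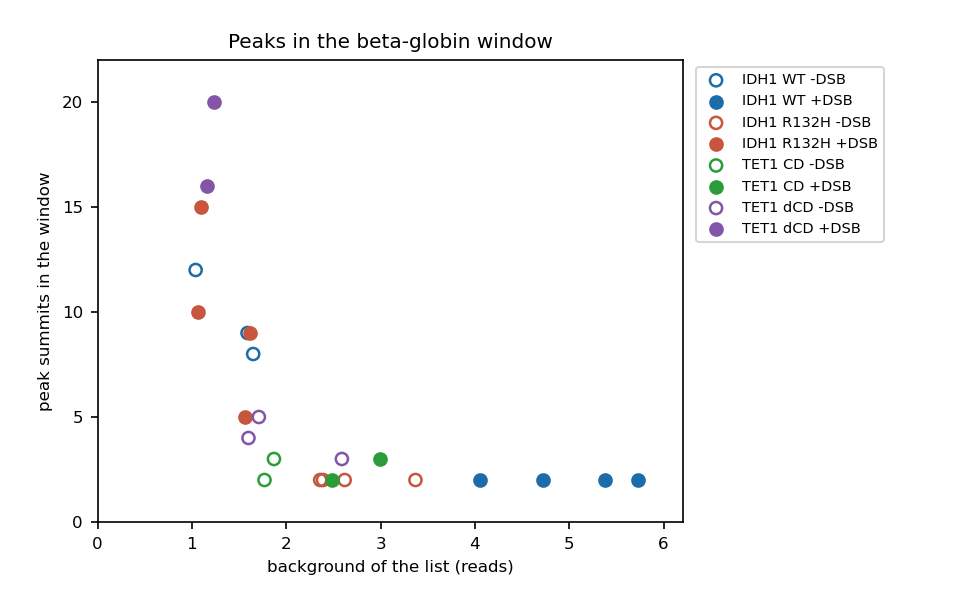
Number of peak summits in the window against the background of the list in reads, 1 point per list, open for −DSB and filled for +DSB. Every list with a background above 2 reads had 2 or 3 peaks in the window, and the highest counts, 16 and 20 in TET1 dCD +DSB, were in lists with backgrounds of 1.16 and 1.23 reads.

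These counts moved with the background of the lists, as the plot of peaks against background reads shows. The IDH1 R132H +DSB, IDH1 WT −DSB and TET1 dCD +DSB lists, with 5 to 20 peaks in the window, had backgrounds of 1.04 to 1.65 reads and 277568 to 503609 peaks in all. The IDH1 WT +DSB and IDH1 R132H −DSB lists, with 2 peaks in the window, had backgrounds of 2.36 to 5.73 reads and 181565 to 346847 peaks. The part of background in the counts was not tested. Restricted to peaks whose −log10 q reached 10, which leaves the 2 sites alone, the responses differed by −1.42 (exact permutation p = 0.0667).

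The sites elsewhere whose −log2 rank followed that of the 2 sites most closely over the 15 samples were named by their nearest protein-coding genes. For the 3′ site these were a site 4.52 kb from SMOC1 on chromosome 14 (Pearson's r = 0.93), a site 125 kb from KCNA5 on chromosome 12 (r = 0.92) and a site inside ZNF705A on chromosome 12 (r = 0.91). For the 5′ site they were a site 1484 kb from OLFM4 on chromosome 13 (r = 0.96), a site 39.4 kb from ARAP2 on chromosome 4 (r = 0.93) and a site 63.2 kb from MEI4 on chromosome 6 (r = 0.92). They are the highest of all sites outside chromosome 11, the samples share libraries and depth with the globin sites, and the values describe these 15 samples only.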

How the data were processed

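The 24 CTCF ChIP-seq peak lists were grouped by label and counted as 15 samples. Not analysed here were input and 4C-seq samples and replicate 1 of IDH1 WT −DSB. According to the labels and the study's methods, the authors trimmed reads with cutadapt, mapped them to hg38 with Bowtie2 and ran the MACS2 peak caller sample by sample, with input as control. The sources give different versions, so none is given here. The deposited lists hold a fold (a ratio), a −log10 p and a −log10 q for each peak, and a score, which was not used. In every list, each fold value went with a single −log10 p. The folds thus rest on a single background per list and show no correction for input position by position. The deposited fold values come in whole steps of 1 read in 23 lists and in scaled steps in IDH1 WT +DSB replicate 3, and they are not normalized between lists, so peaks were ranked within lists. The study states a sequencing depth per condition, but the lists give no total reads per sample. The lists reach weaker peaks than a q-value of 0.05.

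Summits within 100 bp of the strongest were joined into sites. Lists of a condition were counted as 1 sample, by their mean, when a chi-square test at shared summits of 20 to 50 reads found no difference while another pair differed, or, with no other pair, when they agreed better than chance. Conditions were compared with limma 3.58.1 in R 4.3.3 (empirical Bayes with a mean-variance trend, Benjamini-Hochberg adjustment over all sites, threshold 0.05), exact permutation tests and Fisher's exact test, which were tested on simulated data. Sequences were read from hg38 and genes from RefSeq (GRCh38.p14) and GENCODE release 44. Named were sites in at least 12 lists, the 5 globin genes (with 2 kb around), the most frequent other sites (6 tied where 3 were sought) and the 3 most alike sites. The members and lists were chosen with earlier results of these data known. Alternatives were other measures of strength, joining distances of 60 and 200 bp, peak thresholds, samples left out, a replicate block and groups by run names.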

Additional observations from a re-analysis of the deposited data

Results flagged for a closer look

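The response of the 3′ site to 4-OHT was of opposite sign in the 2 genotypes, with no overlap of samples within either: it differed by 0.61 on the −log2 rank scale between IDH1 R132H and IDH1 WT (limma, adjusted p = 0.0926), and by −0.12 when conditions were taken from the run names. The number of peaks in the window responded in opposite directions too, and the responses differed by 16.9 peaks (two-sided exact permutation p = 0.0333), or by 0.417 peaks by run names. Genotype labels were permuted within treatment for this p, so it is not specific to a difference in response. No condition had 4 samples, so no single sample was tested against the rest of its group.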

How the results depend on the processing

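With conditions by run names, differences in −log2 rank changed sign, all without passing the limma threshold. IDH1 R132H minus IDH1 WT −DSB was 0.36 (3′ site) and −0.64 (5′ site), +DSB minus −DSB was 0.05 and −0.02 in IDH1 WT and −0.07 and 0.43 in IDH1 R132H, the difference between responses was −0.12 and 0.45, and TET1 CD minus TET1 dCD was −0.07 and −0.25. The 3′ site passed for the difference between responses (1 of 2 sites) with ranks among shared sites (0.46, adjusted p = 0.0336), with every list as its own sample (0.52, adjusted p = 0.0215) and with every list as its own sample plus a replicate block (0.49, adjusted p = 0.0325), where 53.0%, 64.1% and 65.8% of all sites passed. Leaving out 1 sample at a time gave 0.49 to 0.74 there (adjusted p 0.0635 to 0.271). TET1 CD minus TET1 dCD at the 5′ site ran from 0.25 to 1.21 (0.71 without TET1 dCD +DSB replicate 2), with 0 or 1 sites passing, the latter without TET1 dCD −DSB replicate 3. Leaving out a TET1 CD sample gave no value for this contrast. At a joining distance of 60 bp the 5′ site was in 23 lists and had no value.

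For peaks in the window, run names gave 8.46 for IDH1 R132H minus IDH1 WT (exact permutation p = 0.0333) and 0.417 for the difference between responses. Keeping only −log10 q values from 10 upward gave 0.75 for the response in IDH1 WT, −0.667 in IDH1 R132H, −1.42 for their difference and 0.625 for TET1 CD minus TET1 dCD. The 20000 strongest peaks gave 0 and 0.25 for the last pair. Every list as its own sample gave −7.67 in IDH1 WT and 7.75 in IDH1 R132H (exact permutation p = 0.0286 for each). Leaving out 1 sample gave −0.875 to 1.12 for IDH1 R132H minus IDH1 WT, which turned over without IDH1 R132H +DSB replicate 1 (−0.875) or IDH1 WT −DSB replicates 3 and 4 (−0.667) and was 1.08 without IDH1 WT −DSB replicate 2. It gave 14.8 to 18.8 for the difference between responses (exact permutation p 0.0333 to 0.0833), where without either IDH1 WT +DSB sample (16.9 each) or any IDH1 R132H +DSB sample (17.2 without replicate 2) the smallest possible p, 0.0833 or 0.0556, was reached and the threshold could not be passed.

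Deviations of same-numbered lists correlated above 0.1 in 12 of 21 pairs (median 0.171), and of other pairs in 15 of 63 (median −0.0403). As not every same-numbered pair did, the numbers were not taken as pairing the samples. The replicate block gave 13.7 peaks for the difference between responses (exact permutation p = 0.25, the smallest possible). Against the fit with every list as its own sample, it changed no call at the 2 sites.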
